A study of Mus musculus with 4 samples.

Results

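The genes described here are 31 genes of sterol and fatty acid synthesis that are controlled by the SREBP transcription factors, listed by symbol. Of these, 29 were measured by a probe set that carries a single gene symbol, out of 22180 genes measured in all. No value is given for Idi1 and Scd2, whose probe sets carry several symbols. Expression was measured on single-channel Affymetrix arrays in cell lines grown from mammary tumours of the MMTV-NIC mouse (FVB strain, females), where the mammary tumour virus promoter drives activated ErbB2 together with Cre recombinase from 1 transcript. Both groups share this transgene and a serum medium with insulin, EGF, hydrocortisone and pituitary extract. For 96 h before harvest the cells received either the vehicle DMSO (2 arrays) or GSK-126 at 2 µM (2 arrays), written GSK126 here, a drug that blocks the methyltransferase EZH2 and so the placement of the repressive histone mark H3K27me3. The labels do not say whether the 2 arrays of a group are separate lines or cultures of 1 line, so the p-values reflect array-to-array spread that could be purely technical.

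Cholesterol is built from acetyl-CoA through mevalonate, the isoprenoids, squalene and lanosterol. Long-chain fatty acids are built from the same acetyl-CoA by a carboxylase, a synthase, elongases and desaturases. When membrane sterol is low, the escort protein SCAP carries the SREBP precursors from the endoplasmic reticulum to the Golgi, where proteases release the active factors, and INSIG proteins hold SCAP back when sterol is plentiful. SREBP2, from Srebf2, mainly drives the sterol genes and SREBP1, from Srebf1, mainly the fatty acid genes. In the mammary gland the fatty acid branch supplies milk fat.

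The arrays did not group by treatment. Over all probe sets they correlated at 0.981 to 0.988, and GSK126 replicate 2 had the lowest correlations. Epithelial identity was checked with 10 markers, of which 9 were well expressed (median level of the list 10.7), while Krt19 was dim. In limma, 1 of the 10, Cldn4, was higher at an unadjusted p below 0.05 and 1, Erbb3, was lower, against 4.64% and 5.93% of all genes. Here dim means a mean level below 4.77, the 40th percentile of all genes. Adipocytes also express lipid synthesis genes at high levels. Of 9 adipocyte markers measured, 6 were dim and the brightest was at 5.89, and the defining gene Adipoq was at 3.23 and 3.15 in DMSO and 3.18 and 3.22 with GSK126. The list's median level was 4.39 and 4.52 in DMSO and 4.66 and 4.36 with GSK126. In limma, 1 of the 9, Fabp4, was higher at an unadjusted p below 0.05. Of 10 fibroblast markers, 4 were dim and 3 were higher at that p, again against 4.64% of all genes (median levels 4.90 and 4.85 in DMSO, 5.14 and 4.93 with GSK126). Of 9 immune markers, 6 were dim (median levels 4.54 and 4.40 in DMSO, 4.36 and 4.33 with GSK126), and Cd68 passed the adjusted threshold as higher. Their part in the differences below was not tested.

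None of the 29 genes passed an adjusted p of 0.05 (limma, Benjamini-Hochberg over all genes), a threshold that 0.433% of all genes passed. Acss2, which makes cytosolic acetyl-CoA from acetate, was closest. Its values were 6.70 and 6.70 on the DMSO arrays and 7.42 and 7.28 on the GSK126 arrays, a 1.57-fold difference (log2 difference 0.65, SE 0.10, adjusted p = 0.0566). At an unadjusted p below 0.05, 9 of the 29 genes were higher with GSK126 and 2 were lower, against 4.64% and 5.93% of all genes. The 9 higher genes were the sterol enzyme genes Lss, Nsdhl, Msmo1, Sc5d, Hmgcs1 and Mvd, with Insig1, Acss2 and Fads1, and the 2 lower genes were Srebf1 and Elovl6. Without GSK126 replicate 1 the count of higher genes was 5, and it was also 5 without GSK126 replicate 2. Lss, Insig1 and Acss2 kept an unadjusted p below 0.05 whichever of the 4 arrays was left out.

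Both GSK126 values lay above both DMSO values for 17 of the 29 genes and below them for 4, and the groups overlapped for 8. Over all genes these shares were 18.2% above and 21.8% below. The mean was higher with GSK126 for 22 of the 29 genes, against 48% of all genes. The median log2 difference was 0.18 over the 29 genes (interquartile range 0.022 to 0.26) and -0.0077 over all genes. All 29 are well expressed, with mean log2 levels from 6.86 for Stard4 to 12.4 for Scd1 and a median at the 93.5th percentile of all genes. The 7044 genes at least as bright as Stard4 are therefore a closer background. Among these, 5.07% were above and 12.1% below the controls at an unadjusted p below 0.05, and 0.909% passed the adjusted threshold. Both GSK126 values lay above both DMSO values for 14.7% of these bright genes and below them for 34.2%. Their median difference was -0.056 and 34.7% had a higher mean with GSK126. The 29 genes lay mostly above zero at levels where most genes lay below it, as the plot of change against level shows.

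**Figure D1:**
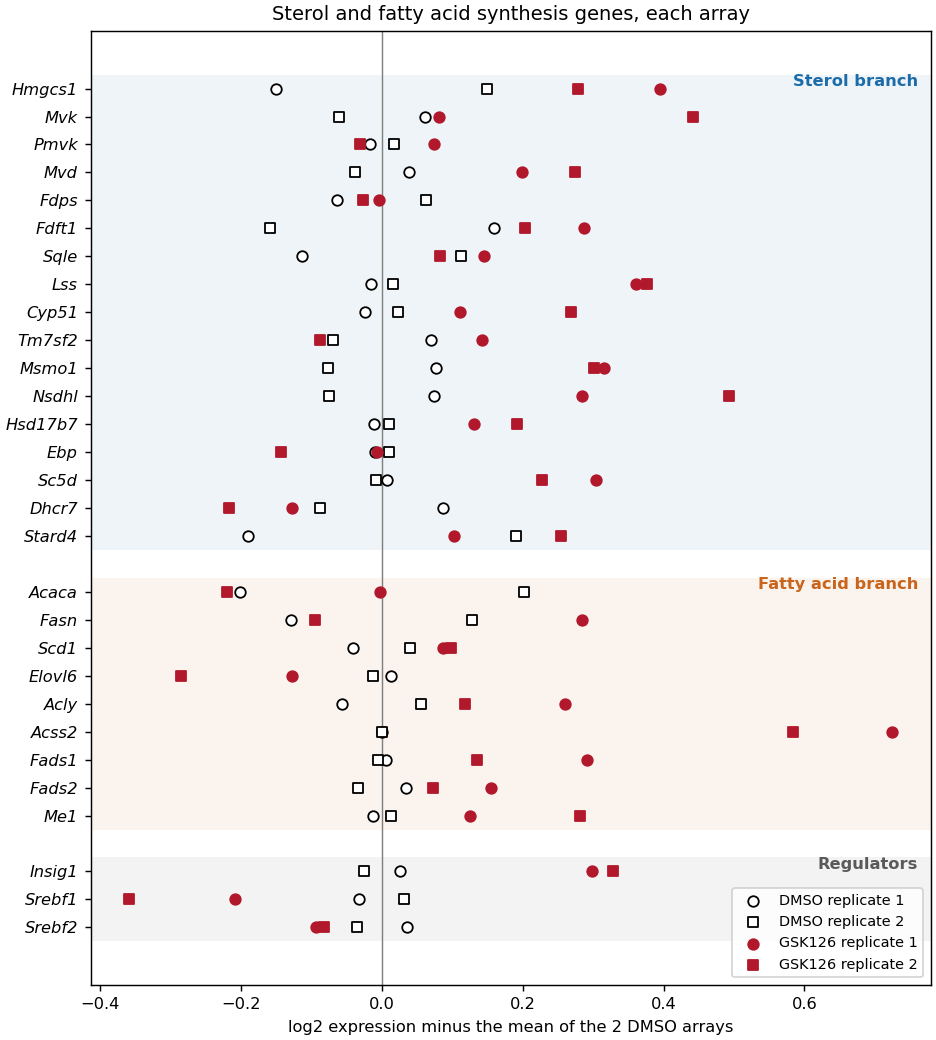
Log2 expression of each of the 29 genes on each array, as the difference from the mean of the 2 DMSO arrays (x axis, log2 units), grouped by branch and ordered by pathway step. Open symbols are DMSO and red symbols GSK126, and both DMSO values of Acss2 coincide at 6.70. Both red symbols lie to the right of both open ones for 17 genes and to their left for 4.

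**Figure D2:**
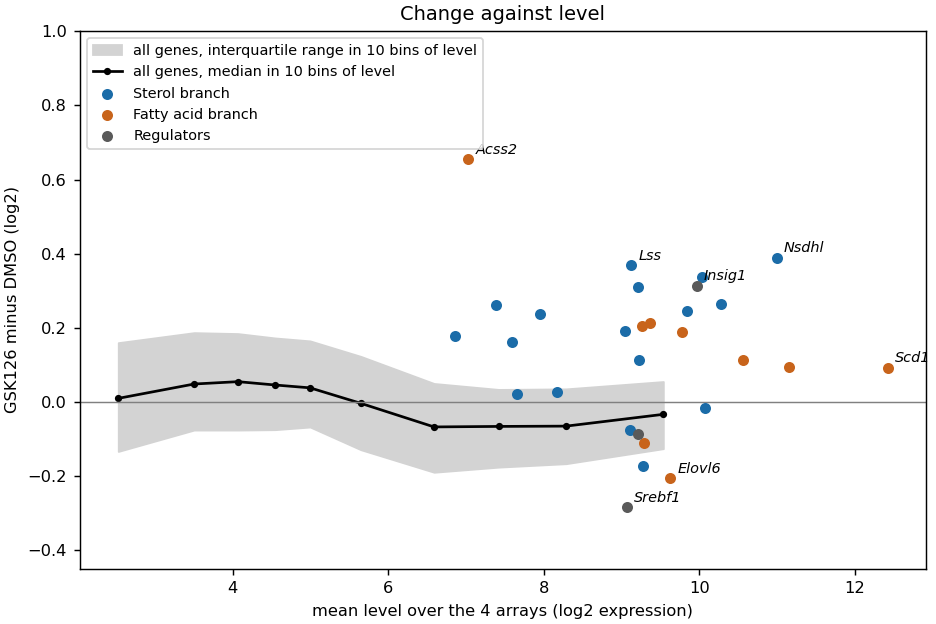
Difference between GSK126 and DMSO means (y axis, log2) against the mean level over the 4 arrays (x axis, log2 expression) for the 29 genes, coloured by branch. The black line and grey band give the median and interquartile range of all genes in 10 bins of level. The median is below zero in the bins from 5.65 upward. Most of the 29 genes have differences above the upper quartile of their bin, the largest being those of Acss2, Nsdhl and Lss.

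The sterol branch had a median log2 difference of 0.19 over 17 genes measured (interquartile range 0.027 to 0.27). Of these genes, 14 had a higher mean with GSK126 and 3 a lower one, and for 10 both GSK126 values lay above both DMSO values, against 18.2% of all genes. At an unadjusted p below 0.05, 6 were higher and 0 were lower, against 4.64% and 5.93% of all genes, and none passed the adjusted threshold in limma (smallest adjusted p = 0.169). The count of 6 was 3 without GSK126 replicate 1, 2 without GSK126 replicate 2, 3 without the intensity trend and 10 after quantile normalization. The mean was higher for 12 to 14 of the 17 genes with centred arrays, after quantile normalization and without each array in turn. The other alternative runs could not change this count, because they left the differences as they were.

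Promoters are shown for 4 sterol genes whose GSK126 and DMSO values did not overlap and for 2 genes of acetyl-CoA supply, because the motif content differed between the branches. They are taken from RefSeq (GRCm38.p6), which held a promoter for 23 of the 29 genes, 13 of them sterol, 7 fatty acid and 3 regulators. Each is the gene's strand, 5′ to 3′, up to the base before the annotated gene start, with bases inside a neighbouring gene left out. Capitals mark the sterol response element core TCACNCCAC and the CCAAT box, each on either strand, so that a CCAAT box on the other strand reads ATTGG. The stretches lie at chr13:119690101-119690350 (Hmgcs1, + strand), chr10:76531355-76531564 (Lss, + strand), chr8:64733579-64733828 (Msmo1, - strand), chrX:72918345-72918520 (Nsdhl, + strand), chr2:155517793-155518042 (Acss2, + strand) and chr11:100528001-100528250 (Acly, - strand).
Hmgcs1: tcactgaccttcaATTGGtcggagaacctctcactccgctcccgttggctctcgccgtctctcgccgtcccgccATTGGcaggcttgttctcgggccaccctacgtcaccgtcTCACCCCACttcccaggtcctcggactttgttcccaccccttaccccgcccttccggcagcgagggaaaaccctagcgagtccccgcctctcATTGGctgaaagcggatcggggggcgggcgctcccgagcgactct
Lss: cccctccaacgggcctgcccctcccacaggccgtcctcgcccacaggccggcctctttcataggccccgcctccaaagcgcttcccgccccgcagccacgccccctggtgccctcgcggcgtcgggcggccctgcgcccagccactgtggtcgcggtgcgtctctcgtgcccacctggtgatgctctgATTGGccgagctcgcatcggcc
Msmo1: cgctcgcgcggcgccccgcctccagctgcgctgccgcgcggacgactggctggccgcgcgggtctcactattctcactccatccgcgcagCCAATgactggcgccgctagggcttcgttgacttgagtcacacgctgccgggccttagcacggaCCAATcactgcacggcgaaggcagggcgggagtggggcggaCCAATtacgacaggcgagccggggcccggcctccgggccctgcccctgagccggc
Nsdhl: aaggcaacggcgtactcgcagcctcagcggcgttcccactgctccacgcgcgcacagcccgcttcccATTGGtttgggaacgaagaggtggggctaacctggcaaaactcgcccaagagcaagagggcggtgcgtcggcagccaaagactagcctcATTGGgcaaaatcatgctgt
Acss2: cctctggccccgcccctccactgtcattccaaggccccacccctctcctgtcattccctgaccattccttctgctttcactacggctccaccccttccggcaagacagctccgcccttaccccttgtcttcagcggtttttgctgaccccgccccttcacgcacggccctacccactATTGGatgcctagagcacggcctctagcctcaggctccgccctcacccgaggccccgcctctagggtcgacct
Acly: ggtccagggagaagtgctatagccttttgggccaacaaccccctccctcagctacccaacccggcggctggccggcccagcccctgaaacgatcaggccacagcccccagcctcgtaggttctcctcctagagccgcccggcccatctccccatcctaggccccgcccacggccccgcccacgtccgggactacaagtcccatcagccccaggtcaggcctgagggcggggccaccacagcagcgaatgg

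A CCAAT box, the site of the SREBP partner NF-Y, was present within 250 bases before a start for 13 of 13 sterol genes, 3 of 3 regulators and 3 of 7 fatty acid genes, and for 37.5% of all 27025 genes with a promoter. Fasn, Acss2 and Me1 were the 3 fatty acid genes, and Acaca, Acly, Elovl6 and Fads2 had none. Several starts of a gene were counted as 1 gene with a match if any start had it. A GC box, GGGCGG on either strand, stood before 12 of 13 sterol genes and 4 of 7 fatty acid genes, against 35.4% of all genes with a promoter and 46.2% of the 16990 that were also tested for expression. For the CCAAT box that second share was 38.7%. The element core was found only before Hmgcs1, beginning 137 bases before the start, and before 1.22% of all genes. The search was for the letters TCACNCCAC alone, so other forms of the element, or sites outside the window, were not looked for. These matches are descriptions of letters in a window. The shares among bright genes were not computed, so the background is not matched for level. Genes with a CCAAT box included Dhcr7, Ebp, Srebf1 and Srebf2, whose means were lower with GSK126. Acaca and Elovl6, whose means were also lower, had none. Matches of different motifs shared no bases in the promoters of these 23 genes.

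In the mevalonate arm, Hmgcs1, which makes HMG-CoA, was at 9.71 and 10.01 on the DMSO arrays and 10.26 and 10.14 on the GSK126 arrays. Both treated values were above both controls, with a 1.26-fold difference (log2 difference 0.34, SE 0.11, adjusted p = 0.368), but the control arrays were 0.30 apart and the difference ranged from 0.19 to 0.49 as single arrays were left out. Mvk, the mevalonate kinase gene, was at 7.31 and 7.19 in DMSO and 7.33 and 7.69 with GSK126. Here GSK126 replicate 2 was far above the other 3 arrays and without it the difference was 0.081, and the interval of the difference reached below zero (-0.052 to 0.57). Mvd, the decarboxylase that ends the arm, was at 7.87 and 7.80 in DMSO and 8.03 and 8.11 with GSK126, a 1.18-fold difference with groups that did not overlap (unadjusted p = 0.0328, adjusted p = 0.427). The kinase gene between them, Pmvk, was at 7.62 and 7.66 in DMSO and 7.71 and 7.61 with GSK126 and overlapped (difference 0.022, 95% interval -0.20 to 0.24). Fdps, which makes farnesyl diphosphate, was at 10.01 and 10.14 in DMSO and 10.07 and 10.05 with GSK126. Its groups overlapped too, and its interval was -0.21 to 0.18.

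Across the squalene and lanosterol steps, all 3 genes had higher means with GSK126, against 48% of all genes and 34.7% of the bright genes. Fdft1, the squalene synthase gene, was at 9.87 and 9.55 on the DMSO arrays and 9.998 and 9.91 on the GSK126 arrays. The lowest treated value was 0.044 above the highest control in a gene whose control arrays were 0.32 apart (difference 0.24, adjusted p = 0.508). Without DMSO replicate 2 the difference of Fdft1 was 0.086, and without DMSO replicate 1 it was 0.40. Sqle, the epoxidase often described as a slow step of the pathway, overlapped at 9.06 and 9.28 in DMSO and 9.32 and 9.25 with GSK126 (difference 0.11, 95% interval -0.12 to 0.35), and its difference was 0.0011 without DMSO replicate 1 and 0.23 without DMSO replicate 2. Lss, which cyclises the epoxide to lanosterol, was at 8.92 and 8.96 in DMSO and 9.30 and 9.32 with GSK126. Replicates of Lss agreed within 0.032 on either side, and the 2 groups did not overlap. Its log2 difference of 0.37 (95% interval 0.18 to 0.56) did not pass the adjusted threshold in limma (adjusted p = 0.169). The difference stayed at 0.35 to 0.39 as single arrays were left out.

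From lanosterol to cholesterol, 5 of 8 genes had both GSK126 values above both DMSO values, 1 had them below and 2 overlapped, against 18.2% above and 21.8% below among all genes and 14.7% and 34.2% among the bright genes. Nsdhl, a sterol dehydrogenase of C4 demethylation, showed the highest fold difference of the sterol branch, 1.31-fold, at 10.87 and 10.72 on the DMSO arrays and 11.08 and 11.29 on the GSK126 arrays (adjusted p = 0.247). That rank rested on GSK126 replicate 2, without which its log2 difference was 0.28, below those of Hmgcs1 (0.40), Lss (0.36), Msmo1 (0.32) and Sc5d (0.30). Msmo1, the oxidase that starts the same demethylation, was at 9.14 and 8.98 in DMSO and 9.38 and 9.36 with GSK126, with treated arrays 0.014 apart and 1.24-fold above the controls (adjusted p = 0.297). The third enzyme of that step, Hsd17b7, was at 7.49 and 7.51 in DMSO and 7.63 and 7.70 with GSK126. It did not overlap either, but its interval of -0.052 to 0.37 included zero. Cyp51, the lanosterol demethylase, was at 8.93 and 8.97 in DMSO and 9.06 and 9.22 with GSK126 and was likewise above the controls on both treated arrays (difference 0.19, 95% interval -0.02 to 0.40). Without GSK126 replicate 2 the difference of Cyp51 was 0.11.

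Sc5d, the sterol desaturase gene, was at 10.15 and 10.14 in DMSO and 10.45 and 10.37 with GSK126, a 1.20-fold difference between groups whose replicates lay within 0.077 of each other (adjusted p = 0.312). The last reductase of the pathway ran the other way. Dhcr7 was at 9.45 and 9.28 in DMSO and 9.24 and 9.15 with GSK126, with both treated values below both controls (difference -0.17, 95% interval -0.39 to 0.046, unadjusted p = 0.106), and a difference of -0.084 without DMSO replicate 1. Ebp, the sterol isomerase, was at 9.14 and 9.16 in DMSO and 9.14 and 9.01 with GSK126 and overlapped (difference -0.075), as did the sterol reductase gene Tm7sf2 at 8.22 and 8.08 in DMSO and 8.29 and 8.06 with GSK126 (difference 0.027). The intervals of Dhcr7 and Ebp end at 0.046 and 0.13. Those of Nsdhl, Lss, Msmo1 and Sc5d begin at 0.15, 0.18, 0.10 and 0.080, so the interval of Ebp meets those of Msmo1 and Sc5d. Differences between genes were not tested. Stard4, a cytosolic carrier of cholesterol, was the dimmest and most scattered gene of the branch at 6.58 and 6.97 in DMSO and 6.88 and 7.03 with GSK126, and its difference of 0.18 turned to -0.012 without DMSO replicate 1.

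**Figure D3:**
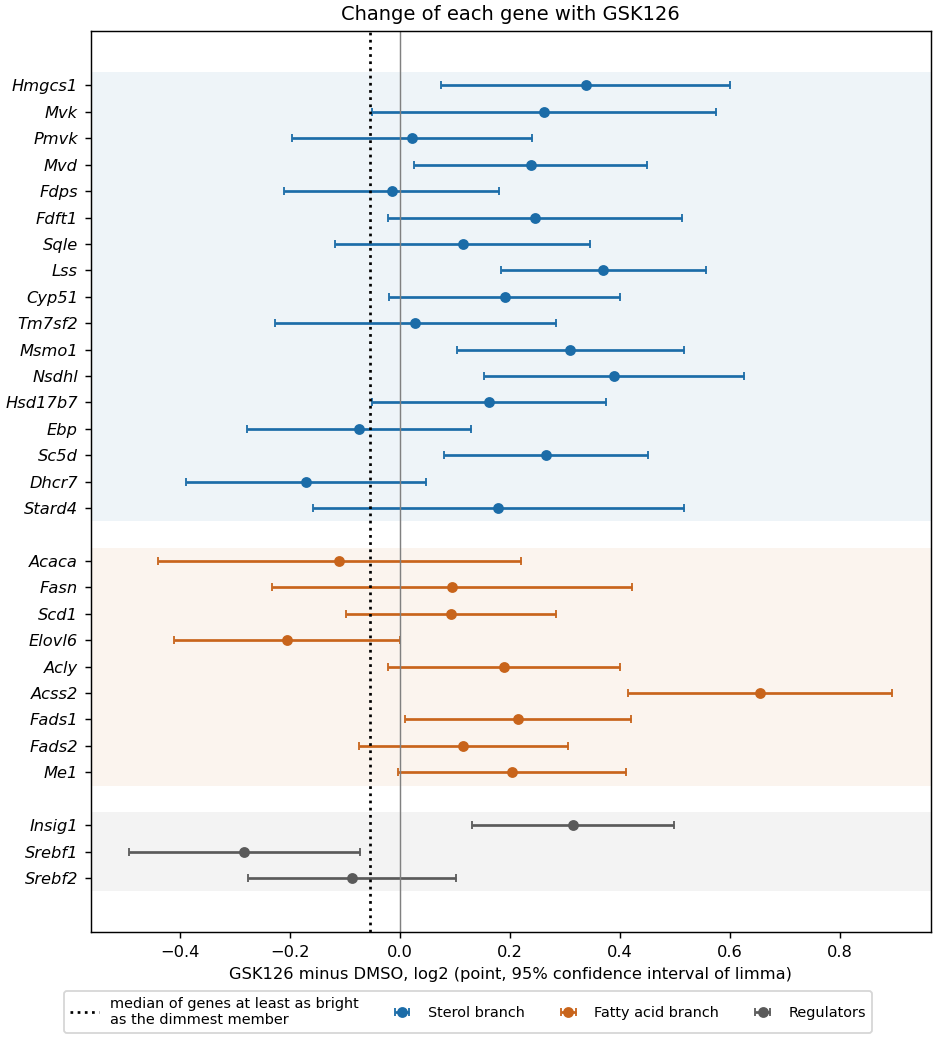
Log2 difference between GSK126 and DMSO for each of the 29 genes (points) with the 95% confidence interval from limma (bars), by branch. The dotted line marks the median of the 7044 genes at least as bright as Stard4, and the intervals of 9 genes lie wholly above zero and those of Srebf1 and Elovl6 wholly below it.

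The fatty acid branch had a median difference of 0.11 over 9 genes measured (interquartile range 0.093 to 0.20). Of these, 7 had a higher mean with GSK126 and 2 a lower one. For 6 genes both treated values lay above both controls and for 1 below them, against 18.2% and 21.8% of all genes. At an unadjusted p below 0.05, 2 were higher and 1 lower, against 4.64% and 5.93%, and none passed the adjusted threshold in limma.

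The 3 genes that supply acetyl-CoA and NADPH all had both treated values above both controls, against 18.2% of all genes and 14.7% of the bright genes. Acss2, given above, had control values that agreed to 2 decimals at 6.70, and its difference ranged from 0.58 to 0.72 as single arrays were left out. It passed the adjusted threshold with a robust prior (0.0485), without dim genes (0.0274), with centred arrays (0.0488) and after quantile normalization (0.0337). Over all alternatives its adjusted p lay between 0.0274 and 0.451. Acly, which makes acetyl-CoA from citrate, was at 9.62 and 9.74 in DMSO and 9.94 and 9.80 with GSK126. Its difference of 0.19 (95% interval -0.022 to 0.40) was below that of Acss2, the 2 intervals did not meet, and without GSK126 replicate 1 it was 0.12. Me1, the malic enzyme that yields NADPH, was at 9.15 and 9.17 in DMSO and 9.29 and 9.44 with GSK126 (difference 0.20, 95% interval -0.0035 to 0.41), and its difference was 0.13 without GSK126 replicate 2.

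The 3 genes of chain synthesis and elongation showed no common direction, with 1 higher mean and 2 lower ones. Acaca, the carboxylase that commits acetyl-CoA to fatty acids, was at 9.14 and 9.54 on the DMSO arrays and 9.34 and 9.12 on the GSK126 arrays. The control arrays were 0.40 apart, the groups overlapped, and the difference of -0.11 turned to 0.09 without DMSO replicate 2. Fasn, the fatty acid synthase gene, was at 10.97 and 11.23 in DMSO and 11.38 and 11.01 with GSK126 and overlapped as well (difference 0.095, 95% interval -0.23 to 0.42). Without DMSO replicate 1 the difference of Fasn was -0.034, and without GSK126 replicate 1 it was -0.094. Elovl6, which extends palmitate, was at 9.74 and 9.72 in DMSO and 9.60 and 9.44 with GSK126, lower on both treated arrays by 1.15-fold (unadjusted p = 0.0492, adjusted p = 0.469). Its unadjusted p was above 0.05 whichever array was left out, with differences from -0.29 to -0.13, the smallest of them without GSK126 replicate 2. It was also above 0.05 with a robust prior, without dim genes, without the intensity trend, with all probe sets tested, after quantile normalization and with the replicate block (unadjusted p from 0.0502 to 0.132 in limma). In limma it stayed below 0.05 with probe sets averaged per gene (unadjusted p = 0.0491) and with centred arrays (unadjusted p = 0.0256, difference -0.25).

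All 3 desaturase genes measured had both treated values above both controls, by small amounts. Such separation was seen for 18.2% of all genes and 14.7% of the bright genes. Fads1, the delta-5 desaturase of polyunsaturated fatty acids, was at 9.27 and 9.25 in DMSO and 9.55 and 9.40 with GSK126, a 1.16-fold difference (unadjusted p = 0.0436, adjusted p = 0.456) that was 0.14 on the log2 scale without GSK126 replicate 1. Fads2, the delta-6 desaturase, was at 10.53 and 10.47 in DMSO and 10.65 and 10.57 with GSK126 (difference 0.11, 95% interval -0.076 to 0.30), or 0.073 without GSK126 replicate 1. Scd1, which makes oleate and was the brightest of the 29 genes, was at 12.33 and 12.41 in DMSO and 12.46 and 12.47 with GSK126. Its difference of 0.093 had an interval of -0.10 to 0.28 and was 0.052 without DMSO replicate 1.

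The 3 regulators differed in direction. Insig1, whose protein retains SCAP and which is itself an SREBP target, was at 9.83 and 9.78 on the DMSO arrays and 10.10 and 10.13 on the GSK126 arrays. Replicates agreed within 0.051, and the treated values were 1.24-fold above the controls (log2 difference 0.31, SE 0.079, adjusted p = 0.232). Srebf1 was at 9.18 and 9.24 in DMSO and 9.003 and 8.85 with GSK126, so that both treated values were below both controls, by 1.22-fold (unadjusted p = 0.0148, adjusted p = 0.343). GSK126 replicate 2 was the lower of the treated arrays, and without it the difference of Srebf1 was -0.21. Srebf2 was at 9.29 and 9.22 in DMSO and 9.16 and 9.18 with GSK126, with treated values just under the controls (difference -0.088, 95% interval -0.28 to 0.10, -0.052 without DMSO replicate 1). The arrays report messenger RNA, and the processing of the SREBP proteins was not measured.

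The sterol and fatty acid branches differed little in the size of their median difference. The median deviation of the sterol genes from their 4-array means was -0.080 and -0.072 on the DMSO arrays and 0.081 and 0.11 on the GSK126 arrays, so that both treated arrays stood above both controls. For the fatty acid genes it was -0.11 and -0.038 in DMSO and 0.098 and 0.024 with GSK126, again without overlap but with replicates farther apart. The sterol median difference exceeded the fatty acid median difference by 0.076. A related but different quantity is the sterol minus the fatty acid median deviation on each array. Its spread between replicate arrays was 0.062 (pooled SD, n = 2 arrays a group), which is not the spread of the excess of 0.076. Without DMSO replicate 2 the excess was -0.0078, without GSK126 replicate 2 it was -0.012, and without GSK126 replicate 1 it was 0.13. Taking means in place of medians gave 0.17 for the sterol genes and 0.14 for the fatty acid genes. The sterol differences reached from -0.17 to 0.39 and the fatty acid differences from -0.21 to 0.65. No test was made of a score over either branch.

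**Figure D4:**
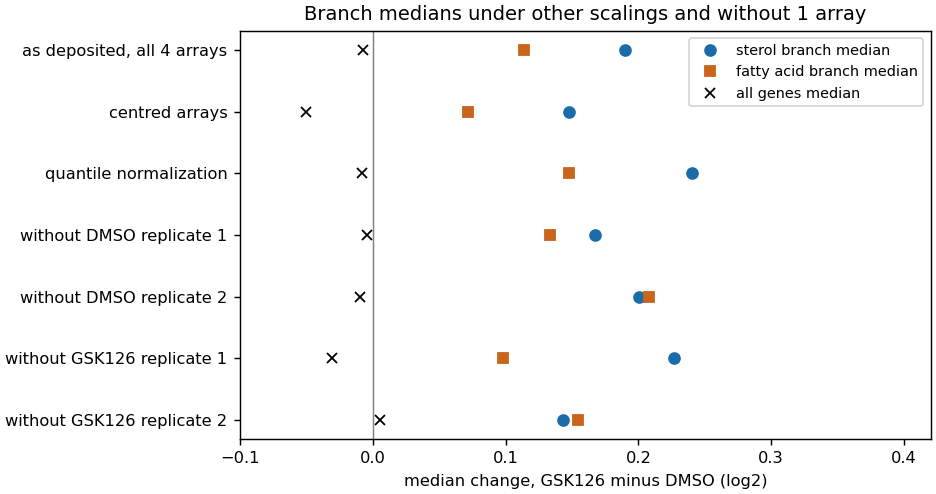
Median log2 difference between GSK126 and DMSO (x axis) of the 17 sterol genes, the 9 fatty acid genes and all genes, as deposited, with 2 other scalings and without each array in turn. Both branch medians stay above the all-gene median in each setting drawn, and their order turns when either DMSO replicate 2 or GSK126 replicate 2 is left out.

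The 5 further lists of pathway genes had medians closer to zero than either branch. Of 10 genes of SREBP transport and processing measured, 0 passed the adjusted threshold in limma, 0 were higher and 1 was lower at an unadjusted p below 0.05, with a median of 0.0078. For this and the next 4 lists, the shares of all genes at that p were 4.64% higher and 5.93% lower. The lower gene was Rnf145, a sterol-responsive ubiquitin ligase, at 8.82 and 9.05 in DMSO and 8.75 and 8.60 with GSK126 (difference -0.26, -0.14 without DMSO replicate 2). Mbtps2, a protease that cleaves the SREBPs, was at 8.08 and 8.16 in DMSO and 8.06 and 7.85 with GSK126, below the controls on both treated arrays (difference -0.17, 95% interval -0.41 to 0.077), while Insig2, the relative of Insig1, was above them on both (difference 0.16, 95% interval -0.089 to 0.41). Without GSK126 replicate 2 these differences were -0.06 for Mbtps2 and 0.085 for Insig2. Erlin2 overlapped (difference -0.13).

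Among 9 further genes of sterol synthesis and uptake the median was -0.055, with 0 genes higher and 1 gene lower at an unadjusted p below 0.05. That gene was Lbr, a nuclear envelope protein with sterol reductase activity, at 8.40 and 8.49 in DMSO and 8.19 and 8.06 with GSK126 (1.25-fold lower, adjusted p = 0.3). Both treated values also lay below both controls for the acetoacetyl-CoA thiolase gene Acat1 (difference -0.20, -0.12 without DMSO replicate 1) and for Ggps1, which makes the geranylgeranyl isoprenoid (difference -0.17, -0.049 without GSK126 replicate 1), and above them for the lysosomal sterol carrier gene Npc2 (difference 0.063). Lbr and Tm7sf2 both encode sterol C14 reductases, and Lbr was lower while Tm7sf2 overlapped.

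Sterol efflux and LXR genes had a median of 0.075 over 8 genes measured, none at an unadjusted p below 0.05 in limma. Nr1h3, which encodes the receptor LXR alpha, was at 5.92 and 6.03 in DMSO and 6.29 and 6.15 with GSK126 (difference 0.25, 95% interval -0.035 to 0.53). The efflux pump gene Abca1 overlapped (difference 0.27), Lpcat3 lay above the controls on both treated arrays (difference 0.14), and Abcg1 lay below them (difference -0.092). Of 21 further fatty acid and glycerolipid genes, 1 was higher and 2 were lower at an unadjusted p below 0.05, a share of 4.76% higher beside 4.64% of all genes, with a median of 0.045. Lpin1, the phosphatidate phosphatase of glycerolipid synthesis, was at 7.70 and 7.74 in DMSO and 8.08 and 8.07 with GSK126, 1.28-fold above the controls (adjusted p = 0.219). Hacd3, a dehydratase of very-long-chain fatty acid elongation, was at 9.13 and 9.17 in DMSO and 8.84 and 8.65 with GSK126, 1.32-fold lower (adjusted p = 0.205). Gpam, which starts glycerolipid assembly, was lower by 1.20-fold (adjusted p = 0.451), and the citrate carrier gene Slc25a1 lay above the controls (difference 0.19, 95% interval -0.043 to 0.42, 0.072 without DMSO replicate 2).

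Fatty acid oxidation, the opposing pathway, had a median of -0.08 over 11 genes measured, with 1 gene higher and 1 gene lower at an unadjusted p below 0.05. Cpt1a, which admits fatty acids to the mitochondrion, was at 7.75 and 8.02 on the DMSO arrays and 8.46 and 8.46 on the GSK126 arrays. Both treated values were above both controls, by 1.48-fold (log2 difference 0.57, SE 0.11, adjusted p = 0.111), a difference second only to Acss2 among the 29 genes and the 5 further pathway lists. Acadm, the medium-chain dehydrogenase, was at 8.52 and 8.59 in DMSO and 8.30 and 8.25 with GSK126 and lower on both treated arrays (adjusted p = 0.322), whereas Acadl (difference 0.091) lay above the controls and Etfdh (difference -0.10) below them.

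**Figure D5:**
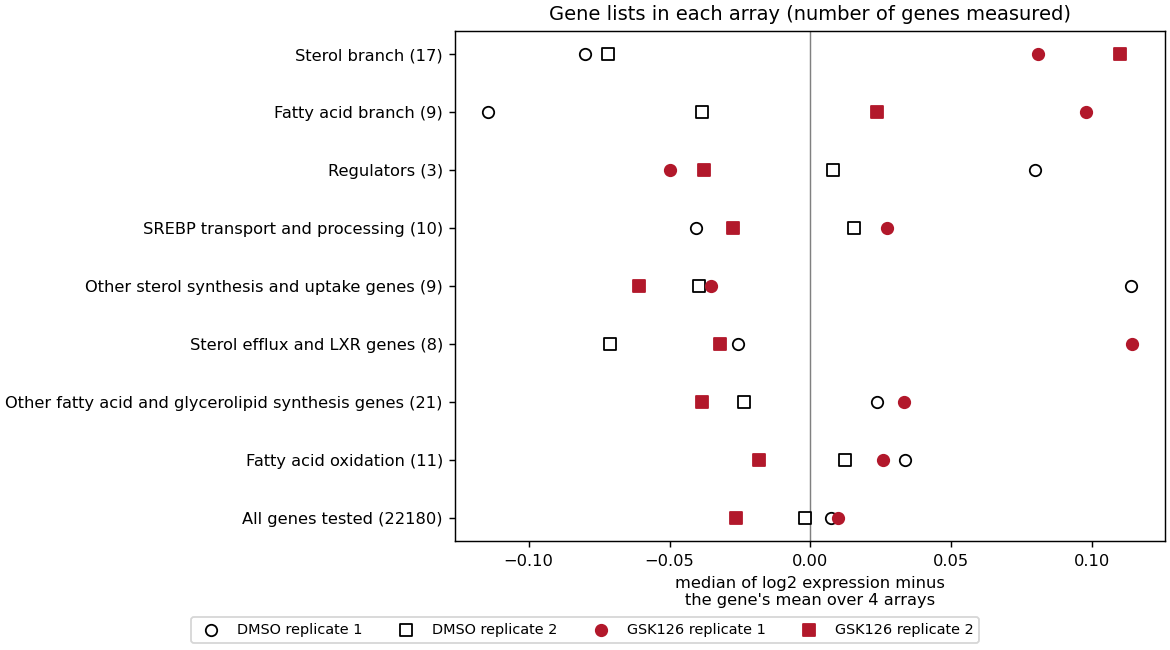
Median over the genes of each list of log2 expression minus the gene's mean over the 4 arrays (x axis), per array, for the 2 branches, the regulators, the 5 further pathway lists and all genes. Open symbols are DMSO and red symbols GSK126, and both treated arrays stand above both controls for the sterol branch (0.081 and 0.11 against -0.080 and -0.072) and the fatty acid branch and below them for the regulators, while the groups overlap for the 5 further lists and for all genes.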

How the data were processed

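Per the labels, the authors made log2 expression values by RMA (robust multi-array averaging, core exons) with Expression Console software. Affymetrix Power Tools appears in the submitters' processing notes. No genome build was given in the sources used here, and centring was kept as deposited. The platform annotation gave 1 gene symbol for 23521 of 41345 probe sets, several for 1814 and none for 16010. The brightest probe set stood for each of 22180 genes, and each of the 29 genes had 1. GSK126 minus DMSO was fitted over all genes with limma 3.58.1 in R 4.3.3 (two-sided moderated test with an intensity trend, 2 residual and 5.57 prior degrees of freedom, Benjamini-Hochberg adjustment, threshold 0.05). The procedure was tested on simulated data. Precision is limited by the number of arrays. Promoters came from RefSeq. The genes, branches, lists and tests were chosen with earlier results of these data known. All 29 genes are described, and of each further pathway list the 4 genes with the smallest p. Alternatives covered the prior, dim genes, probe set choice, scaling, a replicate block and each array left out. Replicate numbers were not used to pair the arrays in the main fit. The correlation of replicate deviations between groups was -0.025 over all genes and -0.23 over the 29 genes. These values cannot tell whether the arrays were paired by design.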

Additional observations from a re-analysis of the deposited data

How the results depend on the processing

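Of the 29 genes, 23 kept the sign of their difference in all 12 alternatives. Only centring, quantile normalization and leaving out 1 array could turn a sign. The other alternatives left the difference of each of the 29 genes as it was. Leaving out 1 array at a time gave -0.031 to 0.074 for Pmvk, -0.088 to 0.14 for Tm7sf2, -0.012 to 0.37 for Stard4, -0.094 to 0.28 for Fasn, -0.079 to 0.048 for Fdps and -0.31 to 0.090 for Acaca. Erlin2, a gene of a further list, ran from -0.29 to 0.024. Centring turned Pmvk to -0.021 and Tm7sf2 to -0.015. With a robust prior, without dim genes, with centred arrays and after quantile normalization, 1 of the 29 genes (Acss2) passed the threshold. The count at an unadjusted p below 0.05 was 11, and it was 5 without the intensity trend, 16 after quantile normalization, 9 with the replicate block and 5 to 11 when 1 array was left out. The sterol median of 0.19 became 0.15 with centred arrays, 0.24 after quantile normalization and 0.17 as a mean, and ran from 0.14 to 0.23 when 1 array was left out. The fatty acid median of 0.11 became 0.071 with centred arrays, 0.15 after quantile normalization and 0.14 as a mean. When 1 array was left out it ran from 0.098 to 0.21 and the sterol excess from -0.012 to 0.13. Of all genes, 96 passed the threshold, 149 did without dim genes, 10 with the replicate block and 0 to 4 when 1 array was left out. In limma, 0 genes passed without the intensity trend (1964 at an unadjusted p below 0.05). With all 41345 probe sets tested, 0 probe sets passed and 2921 were at an unadjusted p below 0.05, which is not a count of genes. The cause of these shifts was not tested.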
